A study of Mus musculus with 6 samples.

Results

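The Hox genes of the interscapular brown fat depot were taken as every row of the deposited table whose symbol is Hoxa, Hoxb, Hoxc or Hoxd followed by a number alone. This gave 32 of the 19241 genes listed, 10 from the HoxA cluster, 9 from HoxB, 6 from HoxC and 7 from HoxD. RefSeq names 39 mouse Hox genes. The other 7 (Hoxa11, Hoxb1, Hoxc10, Hoxc11, Hoxc12, Hoxd1 and Hoxd12) had no row under these symbols and were not analysed here. The tissue came from newborn mice in 2 groups of 3 libraries. WT libraries are labelled as Fstl1-floxed, and KO libraries as Myf5-Fstl1 KO, a deletion of the follistatin-like 1 gene in the Myf5 lineage, which includes precursors of skeletal muscle and of interscapular brown fat. The labels name no Cre line, strain or sex and do not say whether animals were pooled, so p-values measure the spread between these libraries. All 6 libraries came from the whole depot, in which fat cells, vessels, stroma, blood and attached muscle are mixed.

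Hox genes encode transcription factors that bind DNA through a homeodomain and tell cells where they lie along the head-to-tail axis. They sit in clusters in which genes near one end, with low paralogue numbers, are used towards the head, and genes near the other end, with high numbers, towards the tail; genes with the same number in different clusters are paralogues. Fat, skin and muscle keep part of this code after the embryo is built, so the set of active Hox genes reflects the level of the body a tissue came from. Hox proteins bind with partners of the PBX, MEIS and PKNOX families, and Polycomb and Trithorax proteins hold the clusters off or on.

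The homeobox DNA of the highest member of HoxA, HoxC and HoxD and of the highest member of paralogue numbers 10, 11 and 13 is shown, to set active and silent genes side by side, for the stretch that codes for homeodomain residues 41 to 60. Capitals mark the 18 bases for the invariant core of the recognition helix, which lies in the major groove of DNA. The sequences are those of GENCODE vM21 transcripts, 5′ to 3′ on the coding strand, all within coding exons.
Hoxa4 (chr6:52190483-52190542, - strand): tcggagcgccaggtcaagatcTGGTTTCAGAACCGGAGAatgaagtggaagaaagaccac
Hoxc4 (chr15:103035783-103035842, + strand): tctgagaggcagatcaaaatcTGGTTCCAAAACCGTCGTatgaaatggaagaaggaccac
Hoxd8 (chr2:74706645-74706704, + strand): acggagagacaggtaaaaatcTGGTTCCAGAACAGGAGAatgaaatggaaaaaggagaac
Hoxa10 (chr6:52232554-52232613, - strand): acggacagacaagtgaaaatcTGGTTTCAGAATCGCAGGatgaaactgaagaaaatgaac
Hoxd11 (chr2:74684037-74684096, + strand): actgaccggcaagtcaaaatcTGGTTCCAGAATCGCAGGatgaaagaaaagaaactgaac
Hoxa13 (chr6:52258928-52258987, - strand): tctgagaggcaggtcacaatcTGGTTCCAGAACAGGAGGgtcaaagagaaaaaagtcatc
A homeobox with this core was found in all 32 genes. Between genes of the same paralogue number the 180-base homeobox was identical at 67.2% to 93.9% of positions (33 pairs, median 81.7%), and between genes of different number at 46.1% to 88.9% (463 pairs, median 62.2%). Hoxc5 matched its paralogues Hoxa5 and Hoxb5 at 76.7% and 75% of positions, with no shared run longer than 17 bases with either. With genes of other numbers its shared runs reached 31 bases, with Hoxa9. Hoxa4 matched Hoxb4 at 82.8%. The longest run shared by any pair was 52 bases, between Hoxa6 and Hoxb4. The read length is not given in the sources used here, so whether reads inside this box could be split between genes was not tested.

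The depot expressed the head-ward and middle parts of the clusters, and the tail-ward part was near 0. FPKM, fragments scaled to transcript length and to library size, is a level per length, so genes can be set side by side. A gene was called expressed at 1 FPKM or more in each of the 6 libraries, which held for 15 of the 32. These 15 were Hoxa2, Hoxa3, Hoxa4 and Hoxa5, then Hoxb2, Hoxb3, Hoxb4, Hoxb5, Hoxb7 and Hoxb8, then Hoxc4, Hoxc6 and Hoxc8, and last Hoxd4 and Hoxd8. All of them are among the 21 genes with paralogue numbers 1 to 8, and 0 of the 11 genes numbered 9 to 13 qualified. Hoxc5 missed the rule through KO replicate 3 alone (0.88 FPKM) and was at 3.38 to 4.13 FPKM in WT libraries. Hoxa7 (0.74 FPKM in KO replicate 3) and Hoxd9 (0.92 FPKM in KO replicate 2) also missed it through 1 KO library each. By their mean over the 6 libraries, 6 genes lay at 5 FPKM or more, 14 between 1 and 5, 2 between 0.5 and 1 and 10 under 0.5. At a minimum of 0.5 FPKM 20 genes were expressed, and at a minimum of 2 FPKM 10 were.

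**Figure D1:**
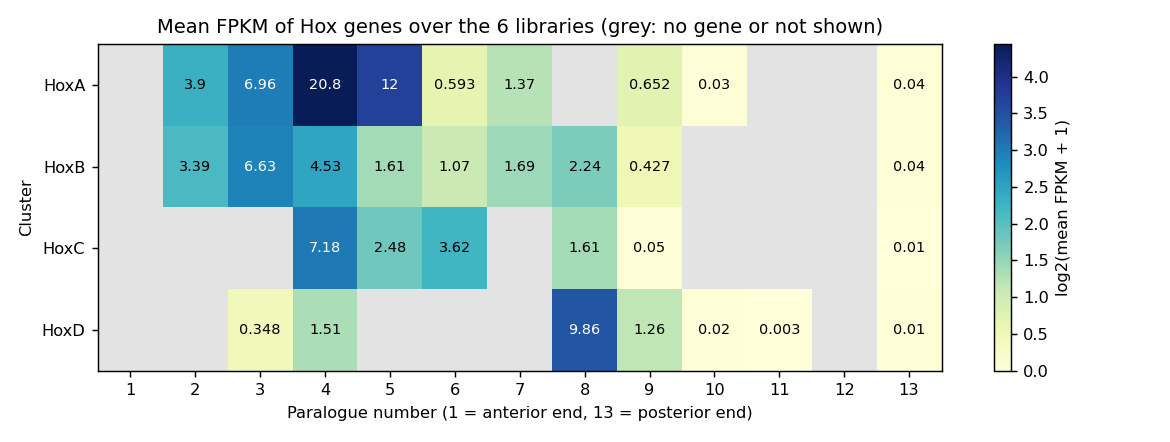
Mean FPKM over the 6 libraries for each Hox gene, with clusters in rows and paralogue numbers in columns; colour is log2(mean FPKM + 1) and grey marks positions with no gene or not shown. The darkest cells lie at numbers 3 to 5 and at Hoxd8, and every cell from number 10 on is under 0.1.

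Hoxa4 (Entrez gene 15401, chr6:52189682-52191703, mm10/GRCm38), which helps to shape the cervical vertebrae, had the highest mean, 20.8 ± 6.95 FPKM (SD over 6 libraries). Hoxa5 (15402, chr6:52201754-52204587), its neighbour, known for its part in lung and cervicothoracic development, followed at 12.01 ± 1.32 FPKM. Hoxd8 (15437, chr2:74704615-74707933) came next with 9.86 ± 1.43 FPKM and was the highest member of HoxD. Its WT libraries (replicates 1, 2 and 3, the order used throughout) gave 9.38, 12.07 and 7.73 FPKM and its KO libraries 10.59, 9.77 and 9.6 FPKM, so the groups overlapped. Hoxc4 (7.18 ± 1.31 FPKM), Hoxa3 (6.96 ± 1.38 FPKM) and Hoxb3 (6.64 ± 0.904 FPKM) followed, and Hoxc4 and Hoxb3 were the highest of their clusters. The highest members of further paralogue numbers, and Hoxc4 as the highest of HoxC, were followed library by library. Hoxa5 had 12.17, 10.8 and 10.58 FPKM in WT libraries and 14.16, 11.67 and 12.7 FPKM in KO. Hoxc4 had 5.97, 7.99 and 7.72 FPKM in WT libraries and 6.11, 6.11 and 9.16 FPKM in KO. Hoxa3, a gene of pharyngeal organs, had 8.6, 7.49 and 7.27 FPKM in WT libraries and 7.48, 6.42 and 4.52 FPKM in KO. For all 3 the groups overlapped, and KO replicate 3 was the lowest library for Hoxa3 and the highest for Hoxc4. Hoxa2 had 3.36, 4.49 and 4.01 FPKM in WT libraries and 3.9, 4.58 and 3.03 FPKM in KO. Hoxb7 had 1.64, 1.64 and 1.77 FPKM in WT libraries and 1.6, 1.37 and 2.14 FPKM in KO. In both of these the KO libraries reached both below and above the WT range. In order of mean level, the ranges of neighbours overlapped over the libraries in all but 1 of 31 adjacent pairs, the exception being Hoxb3, which was never below 5.27 FPKM, and Hoxb4, which was never above 5.0 FPKM.

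By paralogue number, group 4 held the largest share of the summed Hox FPKM, 34.7 ± 3.25% (SD over 6 libraries), ahead of group 5 with 16.8 ± 1.68%, group 3 with 14.4 ± 1.14% and group 8 with 14.3 ± 1.5%. The 10 genes numbered 3 to 5 together held 65.9 ± 2.02%. Group 8 owed its share to Hoxd8, since Hoxb8 and Hoxc8 had means of 2.24 and 1.61 FPKM. Groups 6 and 7 were lower, at 5.44% and 3.18%, with Hoxc6 (3.62 FPKM) and Hoxb7 (1.69 FPKM) as their highest members. At the head-ward end Hoxa2 (3.9 FPKM), the selector gene of the second branchial arch, and Hoxb2 (3.39 FPKM) brought group 2 to 7.51%. By cluster, HoxA held 48.7 ± 2.56% of the sum, HoxB 22.3 ± 1.78%, HoxC 15.4 ± 1.27% and HoxD 13.6 ± 2.14%. A few abundant genes carry these shares: the 6 highest members held 65.4% of the sum.

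Group 9 formed the edge of expression. Its highest member, Hoxd9, had 1.05, 1.11 and 1.36 FPKM in WT libraries and 1.63, 0.92 and 1.47 FPKM in KO, with overlap. Hoxa9 lay at 0.31 to 1.05 FPKM over the 6 libraries, and Hoxb9 at 0.2 to 0.73 FPKM. Hoxc9 (15427), used as a marker that separates white from brown fat depots, lay at 0 to 0.16 FPKM. The 7 genes numbered 10 to 13 never exceeded 0.16 FPKM, and by an estimate from depth and transcript length no library held more than about 3.5 reads for any of them. Hoxa10 was above 0 in WT replicate 2 and in all 3 KO libraries (0.03 to 0.09 FPKM), Hoxa13 in WT replicates 1 and 2 and KO replicate 2 (0.05 to 0.16 FPKM), and Hoxd11 in WT replicate 3 alone (0.02 FPKM). At so few reads, differences between groups were not detectable for these genes.

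In HoxD the levels stepped down over Hoxd8 (9.86 FPKM), Hoxd9 (1.26 FPKM) and Hoxd10 (0.02 FPKM), direct neighbours on chromosome 2. Other clusters had steps as well, from Hoxa5 (12.01 FPKM) to Hoxa6 (0.593 FPKM) and from Hoxc8 (1.61 FPKM) to Hoxc9 (0.047 FPKM). The 250 bases before a RefSeq promoter start (GRCm38.p6, forward strand) are shown for an active, an edge and a silent gene. Each CG dinucleotide, the site of DNA methylation, is in capitals. The Hoxd8 and Hoxd9 windows end just before the gene. That of Hoxd10 lies inside its RefSeq gene (chr2:74684273-74695106), so the 3 windows are not alike in position.
Hoxd8 (chr2:74704365-74704614, + strand): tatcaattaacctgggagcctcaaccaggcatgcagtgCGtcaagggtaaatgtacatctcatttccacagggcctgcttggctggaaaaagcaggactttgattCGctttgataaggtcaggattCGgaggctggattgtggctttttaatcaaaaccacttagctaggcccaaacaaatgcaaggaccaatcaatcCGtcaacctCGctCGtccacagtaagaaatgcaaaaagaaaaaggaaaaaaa
Hoxd9 (chr2:74697513-74697762, + strand): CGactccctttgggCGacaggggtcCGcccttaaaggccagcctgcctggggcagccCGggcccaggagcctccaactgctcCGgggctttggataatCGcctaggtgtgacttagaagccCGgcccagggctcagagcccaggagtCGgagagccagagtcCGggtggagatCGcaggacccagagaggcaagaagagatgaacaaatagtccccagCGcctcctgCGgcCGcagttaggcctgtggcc
Hoxd10 (chr2:74691641-74691890, + strand): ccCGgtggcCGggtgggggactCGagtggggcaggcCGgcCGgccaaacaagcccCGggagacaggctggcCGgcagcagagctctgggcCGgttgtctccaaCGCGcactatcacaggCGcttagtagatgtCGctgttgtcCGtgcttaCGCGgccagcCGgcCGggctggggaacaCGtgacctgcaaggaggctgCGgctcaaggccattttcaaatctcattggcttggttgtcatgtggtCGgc
The 3 windows hold 6, 13 and 20 CG, so the silent gene had the most. CG reads the same on both strands, and 92.1% of all 32851 mouse promoter windows of this length hold at least 1. Of those windows, 50.4%, 31.5% and 17.95% hold at least as many as Hoxd8, Hoxd9 and Hoxd10 do. Over the Hox genes with an entry, the 12 with a mean of 0.5 FPKM or more had 3 to 28 CG (median 10) and the 8 windows of 6 genes under 0.5 FPKM had 2 to 35 (median 20), against a median of 6 over all windows. No methylation or chromatin was measured here.

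Before the groups are compared, the libraries themselves need 4 facts. Fstl1, the targeted gene, ranged from 54.4 to 130 FPKM in WT libraries and from 7.93 to 13.1 FPKM in KO libraries, with a log2 fold change of −2.79 (SE 0.33, limma, adjusted p 0.00979), and an exact two-sided permutation test gave 0.1, the lowest value that 3 against 3 allow. Xist, expressed from an inactive X chromosome, lay at 44.8 to 85.5 FPKM in WT and at most at 0.92 FPKM in KO, while the Y-linked Ddx3y lay at 59.5 to 60.8 FPKM in KO and at most at 0.23 FPKM in WT, so genotype and sex cannot be told apart in any comparison here. Ucp1, the defining gene of brown fat, was at 1695 to 6255 FPKM over the libraries and the general adipocyte gene Fabp4 at 14000 to 17389 FPKM, and muscle genes were present too (Acta1 at 78.6 FPKM in KO replicate 1 and at 367 to 541 FPKM in the others). Libraries held an estimated 13.9 to 15 × 1e6 reads, read off the spacing of low FPKM.

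Hoxc5 was the only Hox gene that passed the test between KO and WT. It fell, and Hoxa4 lay just outside the threshold with a lower level in every KO library. Of the 32 genes, 22 had a mean of at least 0.5 FPKM and were tested in a limma fit over 13331 genes on the log2(FPKM + 1) scale, which understates changes of low genes. At an adjusted p of 0.05, 1 passed and was lower (4.55% of those tested), and 0 were higher, against 2.21% of all genes called in either direction. At an unadjusted p of 0.05 there were 4 Hox genes, all lower (18.2%), against 19.2% of all genes in either direction and 8.6% lower. The groups did not overlap in 5 of the 22 (22.7%), all lower, against 24.9% of all genes in either direction and 11.4% lower. The shares are near the background of either direction, and those counted in the lower direction alone are above it. No test was made of this excess, and the background for adjusted calls is 1.01% lower and 1.21% higher. The median log2 fold change of the 22 was −0.04, against 0.01 over all genes, and 14 of the 22 lay within 0.2 of 0. In whole tissue, fewer cells of a type and less RNA per cell cannot be told apart.

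**Figure D2:**
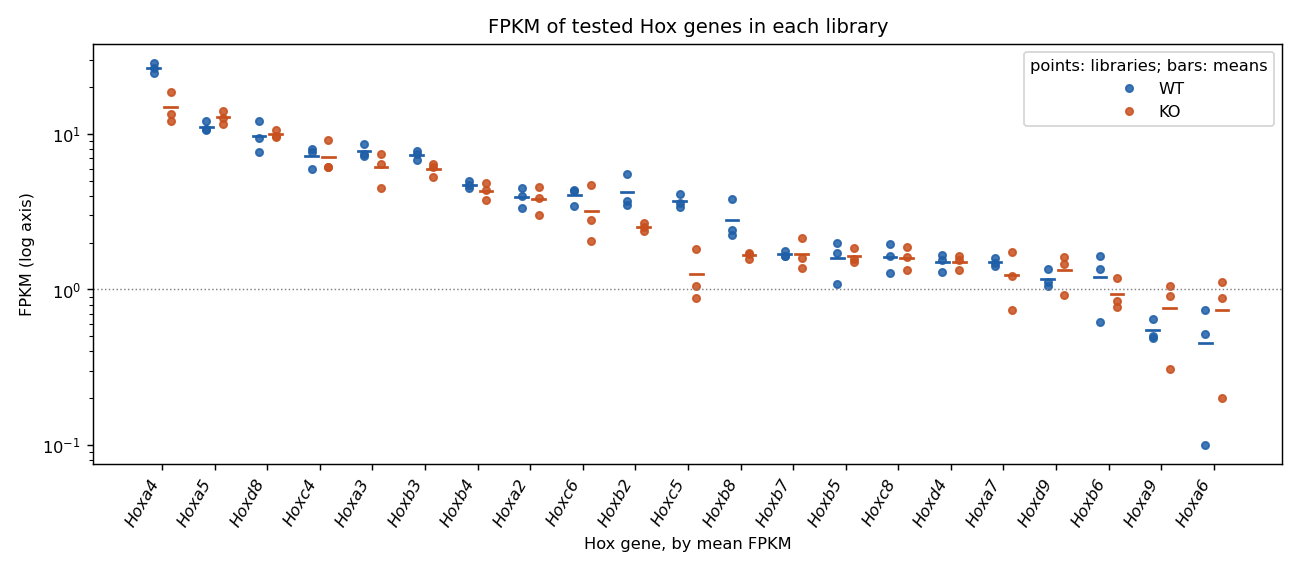
FPKM on a log axis of tested Hox genes in each library, ordered by mean level, with WT in blue and KO in orange; points are libraries, short bars group means and the dotted line 1 FPKM. Hoxc5, Hoxa4, Hoxb2, Hoxb8 and Hoxb3 are the 5 genes in which all KO points lie below all WT points.

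Hoxc5 (15424, chr15:103014008-103017429), a middle gene of HoxC, had 3.38, 3.63 and 4.13 FPKM in its WT libraries against 1.82, 1.05 and 0.88 FPKM in its KO libraries. KO replicate 1 was the highest of its group and lay well below the lowest WT library, so the groups did not overlap. The means were 3.71 ± 0.382 FPKM in WT and 1.25 ± 0.501 FPKM in KO (SD, n = 3 each), and the KO mean was 33.7% of that of WT. The log2 fold change was −1.09 (SE 0.18, limma, adjusted p 0.0306; exact permutation p 0.1). By the depth estimate these levels rest on 143, 155 and 174 reads in WT and on 72.7, 44.9 and 37.9 reads in KO. The listed transcript shares no exonic base with another GENCODE gene. The call was lost without WT replicate 2 (adjusted p 0.119), WT replicate 3 (0.107), KO replicate 2 (0.0846) or KO replicate 3 (0.0855), and without the filter on low values (0.0893), while the log2 fold change stayed between −1.26 and −0.97 when single libraries were left out.

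Hoxa4 had 24.72, 28.68 and 26.61 FPKM in its WT libraries against 18.79, 13.54 and 12.23 FPKM in its KO libraries. KO replicate 1 was the highest of its group and still below each WT library. The means were 26.7 ± 1.98 and 14.9 ± 3.47 FPKM (SD, n = 3 each), and the KO mean was 55.7% of that of WT. The log2 fold change of −0.82 (SE 0.18) missed the threshold (limma, adjusted p 0.0519; exact permutation p 0.1). It passed in 3 of 14 alternatives: without KO replicate 1 (adjusted p 0.0456), with median-of-ratios scaling (0.0466) and with a filter at 5 FPKM (0.0365). Over all alternatives its adjusted p ran from 0.0365 to 0.208. Of its exonic bases 16% are also in Gm29430 on the opposite strand, and since strand handling is not given in the sources used here, reads from the 2 genes there cannot be told apart.

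**Figure D3:**
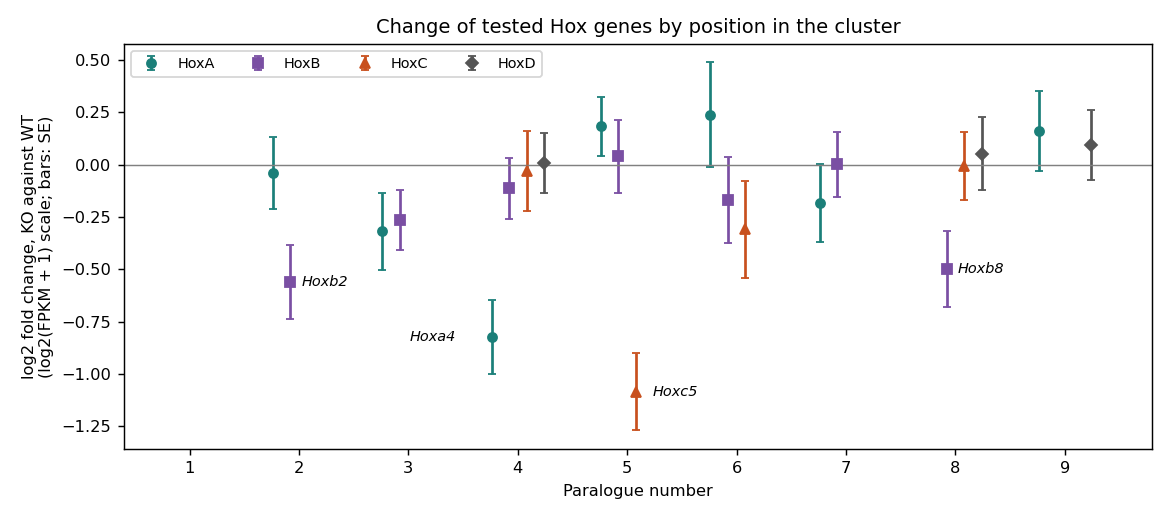
Log2 fold change of KO against WT, with its standard error, for tested Hox genes by paralogue number, marker and colour showing the cluster. Hoxc5 at −1.09 and Hoxa4 at −0.82 lie apart from their paralogues, which are between −0.11 and 0.18.

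Among paralogues of Hoxa4, KO held 91.3% of the WT mean for Hoxb4, 98.6% for Hoxc4 and 101% for Hoxd4, with log2 fold changes of −0.11, −0.03 and 0.01 (limma, adjusted p 0.724 to 0.986). Of the exonic bases of Hoxd4, 45.1% are also in Gm28230 on the same strand, so reads there cannot be told apart. Among paralogues of Hoxc5, it held 115% for Hoxa5 and 103% for Hoxb5, with log2 fold changes of 0.18 and 0.04 (limma, adjusted p 0.521 and 0.93). The ratio of Hoxa5 to Hoxc5 was 2.56 to 3.6 in WT and 7.78 to 14.4 in KO. The ratio of Hoxb4 to Hoxa4 was 0.174 to 0.182 in WT and 0.257 to 0.323 in KO. Neither ratio overlapped between groups, and each gave an exact permutation p of 0.1 for its log2 value, the lowest possible. These ratios were chosen after the gene levels were seen and describe them.

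Ratios of direct neighbours to Hoxa4 and Hoxc5 were also chosen after the gene levels were seen. Each is divided by a gene picked for its lower KO level, so these ratios describe that level and are no separate support. The neighbours themselves overlapped between groups. Hoxa4 lies between Hoxa3 and Hoxa5, and the ratio of Hoxa5 to Hoxa4 was 0.492, 0.377 and 0.398 in WT and 0.754, 0.862 and 1.04 in KO replicates 1, 2 and 3. The ratio of Hoxa3 to Hoxa4 was 0.261 to 0.348 in WT and 0.37 to 0.474 in KO, a log2 difference of 0.50 against 1.06 for Hoxa5 to Hoxa4, and the KO mean of Hoxa3 itself was 78.8% of that of WT. Hoxa4 was above Hoxa5 in 5 of the 6 libraries and about level with it in KO replicate 3. In HoxC the ratio of Hoxc6 to Hoxc5 was 1.02 to 1.19 in WT and 2.32 to 2.69 in KO, and that of Hoxc4 to Hoxc5 was 1.77 to 2.2 in WT and 3.36 to 10.4 in KO. Hoxc4 itself was at 5.97 to 7.99 FPKM in WT and 6.11 to 9.16 FPKM in KO. Hoxc6, known from the thoracic region, had 3.44, 4.33 and 4.35 FPKM in its WT libraries against 4.74, 2.82 and 2.04 FPKM in its KO libraries, with KO replicate 1 the highest of all 6.

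**Figure D4:**
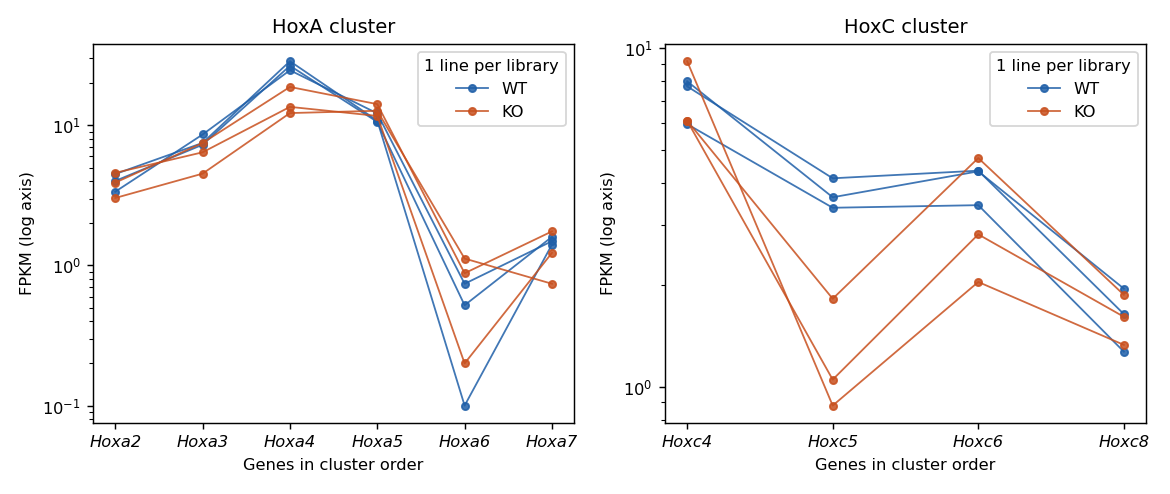
FPKM on a log axis along part of the HoxA cluster (left) and the HoxC cluster (right), genes in cluster order, with 1 line per library, WT in blue and KO in orange. WT and KO lines are apart at Hoxa4 and Hoxc5 and overlap at their direct neighbours Hoxa3, Hoxa5, Hoxc4 and Hoxc6.

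Hoxb2 and Hoxb8 had an unadjusted p under 0.05 and did not pass. Hoxb2, active in the hindbrain of the embryo, had 3.71, 3.51 and 5.57 FPKM in its WT libraries against 2.52, 2.67 and 2.37 FPKM in its KO libraries (log2 fold change −0.56, SE 0.18, limma, adjusted p 0.137). Hoxb8 had 2.24, 2.4 and 3.82 FPKM in its WT libraries against 1.57, 1.68 and 1.73 FPKM in its KO libraries (log2 fold change −0.50, SE 0.18, limma, adjusted p 0.184). WT replicate 3 was the highest library for both, and without it the log2 fold changes were −0.39 and −0.32. Hoxb3 had no overlap either, at 6.81 to 7.77 FPKM in WT and 5.27 to 6.43 FPKM in KO (log2 fold change −0.27, limma, adjusted p 0.352). For Hoxb2 and Hoxb3, 58.5% and 63.9% of exonic bases are shared with the antisense gene Hoxb3os, so reads of the pair cannot be told apart. The remaining 17 tested genes overlapped between groups, with log2 fold changes from −0.32 (Hoxa3) to 0.24 (Hoxa6). Hoxa6 itself ranged from 0.1 to 1.12 FPKM, or about 1.2 to 13.8 reads.

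The 10 genes below the filter were not tested. Among them Hoxd3 alone had no overlap, with 0.41, 0.59 and 0.41 FPKM in its WT libraries against 0.31, 0.16 and 0.21 FPKM in its KO libraries, which come to about 7.0 to 25.7 reads per library. It was singled out after its values were seen, and 75% of its exonic bases are shared with Gm28230 on the same strand. Hoxb9 had 0.27, 0.73 and 0.72 FPKM in its WT libraries against 0.31, 0.33 and 0.2 FPKM in its KO libraries, with overlap.

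The summed Hox FPKM was 101, 111 and 108 in WT and 97.1, 83.1 and 80.6 in KO replicates 1, 2 and 3, and the KO mean was 81.3% of that of WT. Hoxa4 alone made up 59.1% of the difference between the group means. Without Hoxa4, left out after its values were seen, the sums were 76.6 to 82.5 in WT and 68.4 to 78.3 in KO. These overlapped, and the KO mean was still 89.8% of that of WT. The share of paralogue group 4 was 37.5 ± 1.38% in WT and 32.0 ± 1.33% in KO, and its sum 40.1 ± 3.3 and 27.8 ± 3.16 FPKM (SD, n = 3 each). The share of group 5 was 15.4 ± 0.86% in WT and 18.1 ± 1.0% in KO, while its sum was 16.5 ± 0.12 and 15.7 ± 1.68 FPKM. The 11 genes numbered 9 to 13 held 2.27 ± 0.27% in WT and 3.03 ± 0.44% in KO, with sums of 2.44 ± 0.36 and 2.64 ± 0.52 FPKM. The same 7 genes from number 10 on stayed near 0 in both groups, with summed levels of 0.05 to 0.12 FPKM in WT and 0.03 to 0.48 FPKM in KO.

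**Figure D5:**
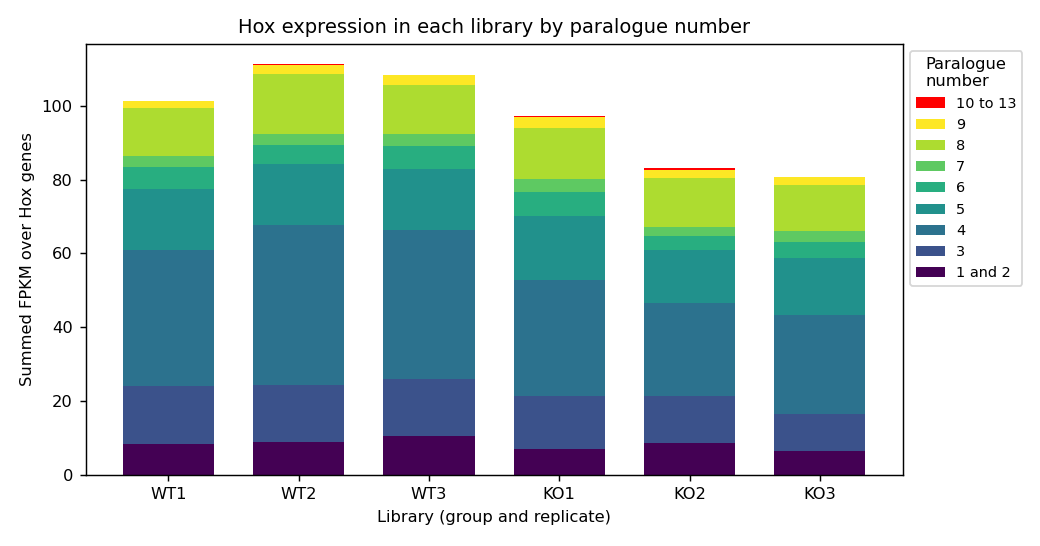
Summed FPKM of the Hox genes in each library, stacked by paralogue number from 1 and 2 (bottom) to 10 to 13 (top). The 3 WT bars reach 101 to 111 FPKM and the 3 KO bars 80.6 to 97.1 FPKM, with group 4 the largest layer in every library.

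Of 105 genes in 7 lists around the Hox system, 67 were tested and 0 passed the limma threshold, against 2.21% of all genes. At an unadjusted p of 0.05 there were 3 lower and 5 higher (11.9%), against 19.2% of all genes. Among the DNA-binding partners, 8 of 9 PBX, MEIS and PKNOX genes were tested and all 8 had log2 fold changes below 0 (median −0.13, against 48.4% of all genes below 0 and a median of 0.01), 0 of them with an unadjusted p under 0.05. Meis2 was at 2.89 to 3.61 FPKM in WT and 2.0 to 2.83 FPKM in KO (log2 fold change −0.25, limma, adjusted p 0.43), and Meis1 and Pknox1 followed at −0.25 and −0.15. In the list of Cdx, Gdf11 and retinoid genes, 8 of 15 were tested, with a median of −0.02. Rarg, a retinoic acid receptor, was at 12.2 ± 2.28 FPKM in WT and 9.36 ± 2.72 FPKM in KO (SD, n = 3 each; limma, adjusted p 0.402). Cdx1 and Cdx2, named after their values were seen and known as inducers of tail-ward Hox genes in the embryo, never exceeded 0.34 and 0.03 FPKM.

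All 18 Polycomb genes were tested, with a median of 0.09, and 3 had an unadjusted p under 0.05, against 19.2% of all genes. Rnf2, the ubiquitin ligase of the first Polycomb complex, was at 18 to 27.6 FPKM in WT and 33.0 to 35.6 FPKM in KO (log2 fold change 0.60, limma, adjusted p 0.106). Ezh1, a histone methyltransferase of the second complex, was at 7.85 ± 1.42 FPKM in WT and 12.01 ± 2.88 FPKM in KO (limma, adjusted p 0.19). The 10 Trithorax and demethylase genes had a median of −0.03, with 0 at an unadjusted p under 0.05.

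Within the clusters, 3 of 16 listed noncoding RNAs were tested. Hoxaas2, antisense to Hoxa3, had 0.33, 0.5 and 0.68 FPKM in its WT libraries against 1.0, 1.13 and 1.15 FPKM in its KO libraries (log2 fold change 0.48, limma, adjusted p 0.127). It shares 19.4% of the exonic bases of Hoxa3. Hotairm1, a noncoding RNA of HoxA, was at 17.7 to 22.1 FPKM in WT and 12.8 to 26.8 FPKM in KO (limma, adjusted p 0.783), and Mira had 4.31 ± 0.281 and 3.4 ± 0.49 FPKM (limma, adjusted p 0.356). Of 6 tested genes that flank the clusters, Calcoco1, beside HoxC, was at 20.6 to 35.9 FPKM in WT and 37.0 to 71.3 FPKM in KO (log2 fold change 1.03, limma, adjusted p 0.0878). Of 14 tested patterning factors outside the clusters, Tbx5, the forelimb and heart T-box gene, had 3.43, 3.54 and 7.17 FPKM in its WT libraries against 1.98, 1.71 and 2.16 FPKM in its KO libraries (log2 fold change −0.90, limma, adjusted p 0.0902). Without WT replicate 3, its highest library, the log2 fold change was −0.61. Irx3 had 0.48, 0.9 and 1.24 FPKM in its WT libraries and 1.48, 1.49 and 1.75 FPKM in its KO libraries, with no overlap (log2 fold change 0.48, limma, adjusted p 0.199). Meox1 was at 4.81 ± 1.24 and 3.17 ± 0.505 FPKM in WT and KO, with overlap (limma, adjusted p 0.234).

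Markers of cell types in the depot moved in several ways between the same libraries. Over all genes, in either direction, 2.21% passed the limma threshold and 19.2% had an unadjusted p under 0.05. The 4 markers of vascular mural cells had a summed level of 70.1 to 97.0 FPKM in WT and 52.9 to 63.0 FPKM in KO, and 1 of them passed: Cspg4 fell from 5.99 ± 1.17 to 2.14 ± 1.06 FPKM (limma, adjusted p 0.0435). Among 9 markers of mesenchymal stroma, Ly6a rose from 25.9 ± 5.37 to 51.9 ± 3.55 FPKM (limma, adjusted p 0.0332). At an unadjusted p under 0.05 the list had 2 higher and 1 lower, the latter being Pi16 with 6.13 ± 2.37 FPKM in WT and 3.15 ± 1.53 FPKM in KO (limma, adjusted p 0.199; named after its values were seen). The summed level, most of it Col1a1 and Col3a1, was 1100 to 1454 FPKM in WT and 1207 to 2030 FPKM in KO. Of 9 brown adipocyte markers, Elovl3 and Plin1 fell (limma, adjusted p 0.0151 and 0.0267). Of the others with an unadjusted p under 0.05, named after their values were seen, the KO means of Ucp1 and Prdm16 were 48.9% and 46.0% of WT with no overlap (limma, adjusted p 0.0804 and 0.0519), and that of Ppargc1a was 146.8% with overlap (adjusted p 0.251). The sums, most of which is Fabp4, were 20889 to 26360 FPKM in WT and 19916 to 21874 FPKM in KO. The 8 muscle markers summed to 1063 to 1541 FPKM in WT, 262 FPKM in KO replicate 1 and up to 1470 FPKM in the other KO libraries. For endothelium the sums were 415 to 494 and 414 to 477 FPKM, for macrophages 29.4 to 44.6 and 32.3 to 51.1 FPKM, for nerve 3.58 to 5.57 and 2.82 to 6.79 FPKM, for blood 1278 to 5660 and 1128 to 1635 FPKM, for keratinocytes 1.93 to 2.07 and 1.54 to 2.19 FPKM, and for cartilage and bone 0.84 to 1.38 and 0.96 to 1.73 FPKM, in WT and KO. Calls were lost without single libraries for Elovl3 (WT replicate 2 or 3), Plin1 (WT replicate 2 or 3, KO replicate 2 or 3), Cspg4 (the same 4) and Ly6a (all but WT replicate 1). No marker was at 0 in all 6 libraries. The part of these cell types in the levels of Hoxc5 and Hoxa4 was not tested.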

How the data were processed

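RNA of the whole interscapular depot was sequenced in bulk in 3 WT and 3 KO libraries, grouped and numbered by their titles. The deposited table gives FPKM per gene, rounded by the authors to 2 decimals, per the file headers. The submitters' processing notes name HISAT2 2.0.4, Bowtie2 2.2.5 and DESeq2 with no role, and the build mm10. The counting tool, annotation and strand handling are not given in the sources used here.

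FPKM were transformed to log2(FPKM + 1) with no further scaling. Only genes averaging 0.5 FPKM or more over the 6 libraries were compared with limma 3.58.1 in R 4.3.3 (lmFit, eBayes with trend, group as the only term), with Benjamini-Hochberg adjustment over all 13331 genes, with a threshold of 0.05. The fit was tested on simulated data. Alternatives were other pseudocounts (0.1, 0.01), filters (none, 5 FPKM), scalings (quantile, median-of-ratios), eBayes without trend, the replicate number as a block, and leaving out each library.

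Depth was estimated from single-transcript genes of 500 to 1300 nt with 0.1 to 0.8 FPKM: at the best depth, with a length offset of 50 nt, 72.3% to 77.3% of these values came within 0.2 of whole reads, against 39.2% to 42.7% with shuffled lengths. Reads of a gene were estimated from its longest listed transcript, so they are approximate. All 32 Hox genes matched RefSeq (GRCm38.p6) by Entrez identifier and had a GENCODE vM21 transcript, and 18 had a RefSeq promoter entry. Homeoboxes were found by translating coding sequences, and are given as DNA.

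Values in every library were to be given for Hox genes with an unadjusted p under 0.05 and for the highest of each cluster and paralogue number, other Hox genes by range; from each context list up to 3 genes with the smallest p were eligible, and from each marker list the most abundant gene and any that passed. The Hox genes, the 7 context lists and the 10 marker lists were chosen with earlier results of these data known. Some genes and sequences that these rules would name are not reported here. Figures were drawn with matplotlib 3.10.9.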

Additional observations from a re-analysis of the deposited data

How the results depend on the processing

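The number of Hox genes past the threshold was 1 (Hoxc5) and ran from 0 to 2 when single libraries were left out. It was 0 without the filter, where 19241 genes entered the fit, and 2 (Hoxc5 and Hoxa4) with median-of-ratios scaling. A filter at 5 FPKM removed Hoxc5 from the fit and left 6 Hox genes, of which Hoxa4 passed. Hoxc5 kept its direction in all 13 alternatives that held it, at −1.63 to −0.97 on the log2 scale, and its limma adjusted p lay between 0.0261 and 0.119. Over all genes the count of 295 (134 lower) was 35 (17 lower) without the filter and ran from 31 to 370 (13 to 198 lower) when single libraries were left out, lowest without WT replicate 3. Fstl1 had a log2 fold change of −2.79 without the filter, at an adjusted p of 0.0606. The count in the context lists was 0 and became 1 (Rnf2) without WT replicate 1.

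The replicate numbers 1 to 3 were not taken to pair libraries, since no pairing is stated. WT and KO libraries of one number, each taken as deviation from its group mean, had correlations of 0.068, 0.043 and 0.043. Libraries of different number were not set beside these, so the values do not settle whether libraries were paired. With the replicate block 167 genes (73 lower) and 0 Hox genes passed, and Hoxc5 had an adjusted p of 0.0523.

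Signs turned in members near 0. Hoxb7 was −0.005 with a pseudocount of 0.1, −0.007 with 0.01, −0.048 after quantile normalization and −0.01 with median-of-ratios scaling. Hoxd4 was −0.036 and −0.003 under those scalings, and Hoxb5 −0.009 after quantile normalization. With single libraries left out, Hoxa2 ran from −0.15 to 0.085, Hoxb5 from −0.11 to 0.149, Hoxb7 from −0.112 to 0.091, Hoxc4 from −0.201 to 0.056, Hoxc8 from −0.105 to 0.084, Hoxd4 from −0.05 to 0.059 and Hoxd8 from −0.085 to 0.206. Aldh1a1 (−0.22 in the main fit, −0.358 to 0.04) and Hotairm1 (−0.15, −0.422 to 0.084) lay further from 0, and each turned in 1 alternative. The cause of these shifts was not tested.

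The number of expressed Hox genes was 10 to 20 over all alternatives and 15 to 17 without single libraries. On a sum of log2(FPKM + 1), which weights abundant genes less, paralogue numbers 3 to 5 held 53.6%, numbers 9 to 13 5.86%, HoxA 37.6%, HoxB 29.9% and HoxC 18.4%. FPKM have no stated depth, and values under about 0.2 FPKM rest on few reads.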
